A study of Mus musculus with 6 samples.

Results

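The genes of mitosis and chromosome segregation were examined in mouse bone marrow labelled knockout (Stag2KO) or wild type (Stag2WT) for Stag2, the gene of a cohesin subunit. Cohesin is the ring that ties sister chromatids to each other until anaphase and extrudes chromosome loops. The set held 42 genes, chosen by function and looked up by symbol among the 33924 genes of the deposited count table, and all 42 had enough reads to be tested. RNA was sequenced from marrow depleted of lineage-marked cells with antibodies on magnetic beads, in 3 libraries labelled Stag2KO and 3 labelled Stag2WT. The sources used here do not give the Stag2 allele, the way it was deleted, or the strain, age and treatment of the mice. Nor do the labels tie libraries to animals, so the p-values speak to the spread among these libraries alone, which may be technical. Values are CPM, gene reads brought to a common library size, with the libraries scaled by the trimmed mean of M-values (TMM), and are given for replicates 1, 2 and 3 in that order. CPM is not corrected for gene length, so levels are compared between libraries and not between genes.

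When a cell divides, cyclins bound to Cdk1 start mitosis, condensin and topoisomerase II fold and untangle the chromosomes, and microtubules capture each chromatid through its kinetochore. A checkpoint holds the anaphase-promoting complex (APC/C) back until all kinetochores are attached. The complex then marks securin and cyclin B for destruction, which frees separase to cut cohesin, so that sister chromatids part and the cell splits. Lineage-depleted marrow holds many dividing blood progenitors, in which transcripts of these genes peak late in the cell cycle.

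Libraries held 29435651 to 37722325 gene reads. Stag2 itself stood at 169, 187 and 183 CPM in Stag2KO and 338, 329 and 324 CPM in Stag2WT (log2 fold change -0.88 ± 0.063 SE, edgeR adjusted p = 0.000278), so the label was borne out in every library while reads of the gene remained. Reads in no annotated gene made up 11.7% ± 0.98 (SD, n = 3) of the Stag2KO tables and 9.24% ± 0.73 (SD, n = 3) of the Stag2WT tables. None of the cell type markers found in the table was without reads, those of the B and T lineages included.

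A share of the mitosis genes fell in Stag2KO marrow, among them Ccna2, Birc5, Cenpa and Ncaph, and 1 gene rose, Pttg1, which encodes securin. Of the 42 genes, 14 were called lower (33.3%), where 10.5% of the 15708 genes tested were, and 1 was called higher (2.38%), where 10.7% were; a call is an edgeR adjusted p under 0.05. The fitted log2 fold change was negative for 39 genes, with a median of -0.19, a level 12.3% lower, against a median of 0.01 over all genes tested. In 27 genes (64.3%) every Stag2KO library lay below every Stag2WT library, as 21.2% of all genes tested did. Pttg1 alone lay wholly above, as 22.2% of all genes tested did, and the ranges of the other 14 overlapped. The changes were small, from -0.44 for Birc5 to -0.21 for Cenpf among the genes called lower, and the remaining 27 genes lay between -0.25 (Sgol1) and 0.05 (Ect2).

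**Figure D1:**
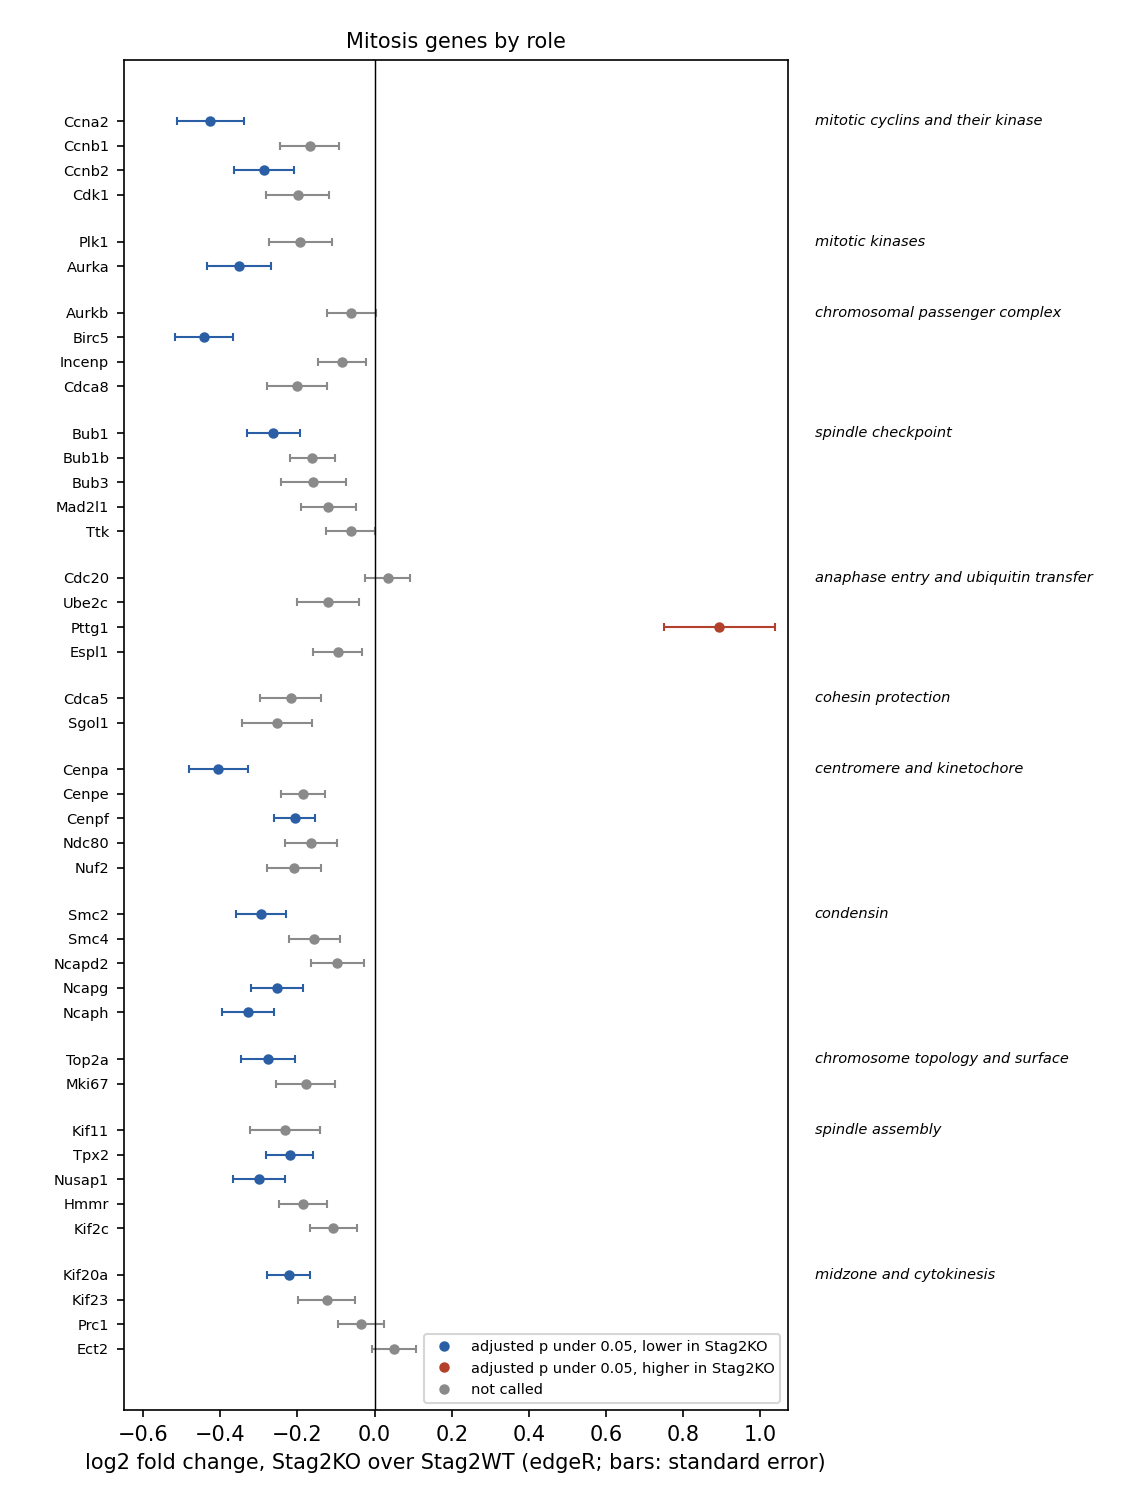
Fitted log2 fold change of each of the 42 mitosis genes (Stag2KO over Stag2WT, horizontal axis, bars show the SE), grouped by role, with called genes marked by colour. There are 39 points left of 0, down to -0.44 for Birc5; Cdc20 (0.03) and Ect2 (0.05) lie just right of it and Pttg1 lies far right at 0.89.

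Summed over the 42 genes, the level was 7538, 7514 and 7187 CPM in Stag2KO and 8216, 8760 and 8511 CPM in Stag2WT. The groups did not overlap, and the Stag2KO mean was 12.7% lower (7413 ± 196 against 8495 ± 272 CPM, SD, n = 3 each). Leaving out Top2a and Mki67, the most read of the set, gave a sum 12.2% lower. In bulk tissue, fewer dividing cells and less RNA per dividing cell cannot be told apart.

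Single libraries leaned the same way over many genes. Stag2WT replicate 2 was the highest of the 6 libraries for 27 genes and Stag2KO replicate 3 the lowest for 26. Fewer genes were called lower from 5 libraries, among the mitosis genes and among all genes tested. Leaving out Stag2KO replicates 1, 2 and 3 in turn gave 7, 6 and 5 mitosis genes lower. Over all genes tested, 6.13%, 5.65% and 6.28% were lower in these fits. Leaving out Stag2WT replicates 1, 2 and 3 gave 13, 8 and 7, where 7.67%, 6.39% and 8.18% of all genes tested were lower. Scaling by total gene reads alone gave 8 mitosis genes lower, where 8.38% of all genes tested were. It put 60.1% of all calls higher in Stag2KO, against 50.6% with TMM. The genes called in all 14 other settings were Ccna2, Birc5, Cenpa and Ncaph, all lower, and Pttg1, higher.

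**Figure D2:**
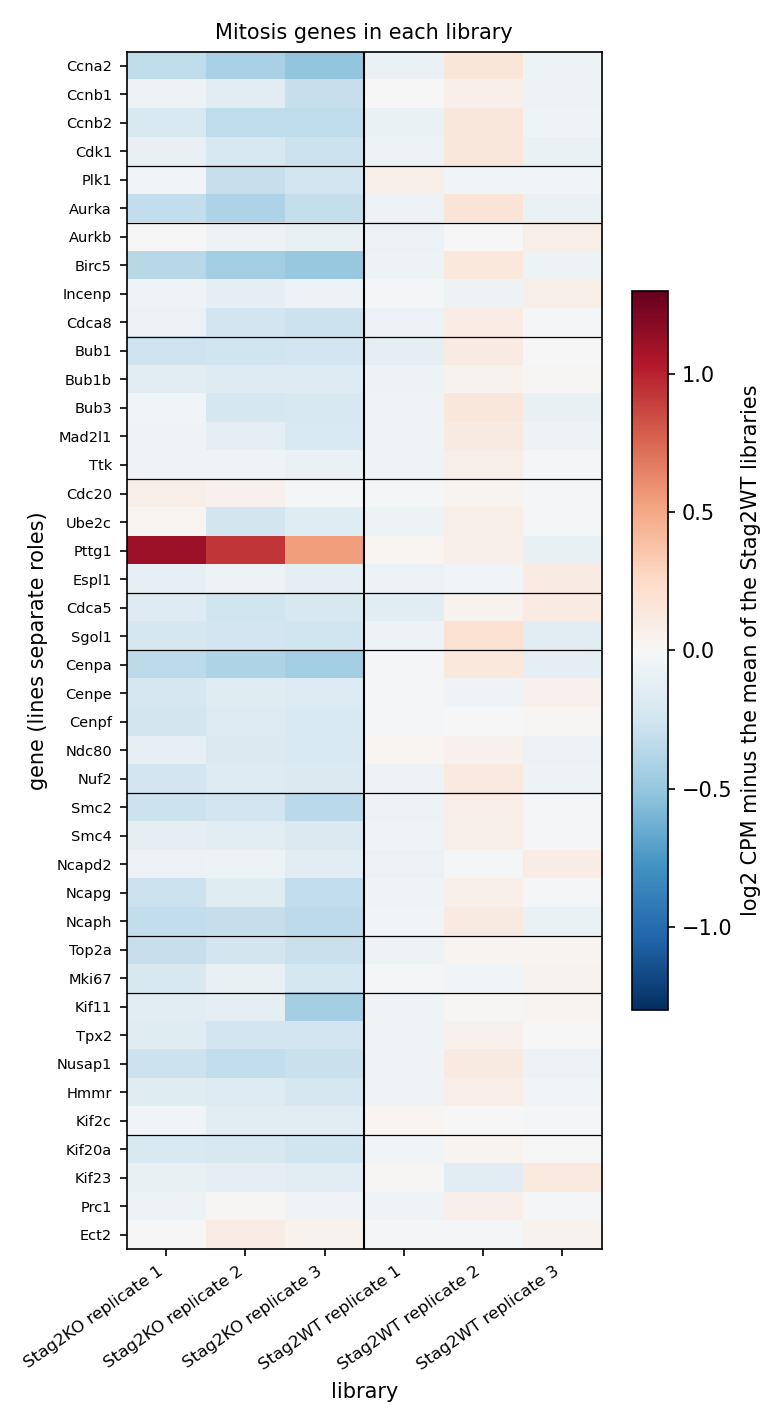
The log2 CPM of each mitosis gene in each library, minus the mean of the 3 Stag2WT libraries (colour, blue lower and red higher). The 3 Stag2KO columns are mostly blue, Stag2WT replicate 2 is mostly pale red, and Pttg1 is red in all 3 Stag2KO libraries.

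Many late cell cycle genes carry a cell cycle homology region near their start, read here as the letters TTTGAA or TTTAAA, and CCAAT boxes bound by NF-Y. These letters were searched exactly on both strands (TTTAAA reads the same on both) from 250 bases before to 50 bases after each start in RefSeq promoters of the build GRCm38.p6, in which 36 of the 42 genes were matched. TTTGAA was found in 26 of 36 (72.2%), against 14.6% of 9995 tested genes with a promoter and 20.2% of all 27025. Within the 250 bases before the start alone it was found in 16 of 36 (44.4%), against 13.1% and 18.3%. TTTAAA was found in 9 of 36 (25.0%), against 11.0% and 14.9%. CCAAT was found in 27 of 36 (75.0%), against 42.5% and 41.1%, and 17 (47.2%) held at least 2 copies, against 16.3% and 13.3%. Among the 11 matched genes called lower, TTTGAA was in 7 (63.6%) and CCAAT in 8 (72.7%), and among the 24 not called each was in 19 (79.2%). A match is a description of the sequence and not a binding site. The Pttg1 window held none of the 3 motifs, which was also true of Mad2l1, Nuf2, Ncaph and Nusap1, so 5 genes in all.

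A few promoters of genes called lower are shown because they span that range, from many matches to none; each gives the 250 bases before the start, 5′ to 3′ on the gene's strand, with matches in capitals. Ccnb2 (chr9:70421555-70421804, minus strand) held TTTGAA at -167 and CCAAT at -87, -54 and -21, counted from the start. Top2a (chr11:99024190-99024439, minus strand) held 6 CCAAT boxes on either strand, of which the reverse reads ATTGG, and TTTGAA or its reverse TTCAAA at -179 and -23. Cenpf (chr1:189688087-189688336, minus strand) held TTTAAA and a pair of CCAAT boxes. Past the start, outside the bases shown, TTTGAA or its reverse also lay at 5 in Ccnb2 and at 3 in Cenpf. Ncaph (chr2:127133955-127134204, minus strand) held none.
Ccnb2: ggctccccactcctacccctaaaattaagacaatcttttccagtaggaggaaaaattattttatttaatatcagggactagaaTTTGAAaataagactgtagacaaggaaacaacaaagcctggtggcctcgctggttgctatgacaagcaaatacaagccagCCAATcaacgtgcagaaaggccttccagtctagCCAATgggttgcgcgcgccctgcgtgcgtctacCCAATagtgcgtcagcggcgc
Top2a: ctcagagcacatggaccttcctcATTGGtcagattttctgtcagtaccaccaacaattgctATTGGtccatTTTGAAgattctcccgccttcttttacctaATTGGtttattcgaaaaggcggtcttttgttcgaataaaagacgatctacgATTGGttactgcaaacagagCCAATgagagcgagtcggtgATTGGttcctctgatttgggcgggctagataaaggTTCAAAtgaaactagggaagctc
Cenpf: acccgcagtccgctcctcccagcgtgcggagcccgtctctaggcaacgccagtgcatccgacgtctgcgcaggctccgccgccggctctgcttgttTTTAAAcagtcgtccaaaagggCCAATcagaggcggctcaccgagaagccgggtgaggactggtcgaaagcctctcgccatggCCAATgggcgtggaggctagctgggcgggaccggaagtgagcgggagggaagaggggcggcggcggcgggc
Ncaph: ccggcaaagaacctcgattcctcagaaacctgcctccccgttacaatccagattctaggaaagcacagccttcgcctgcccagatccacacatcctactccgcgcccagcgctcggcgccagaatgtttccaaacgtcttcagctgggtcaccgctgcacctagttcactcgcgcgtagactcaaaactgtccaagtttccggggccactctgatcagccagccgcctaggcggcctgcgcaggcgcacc

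Among the mitotic cyclins and their kinase, cyclins A2 and B2 fell while cyclin B1 and Cdk1 did not pass the test. Ccna2, the cyclin of S phase and mitotic entry, stood at 214, 201 and 188 CPM in Stag2KO and 253, 301 and 256 CPM in Stag2WT. The groups were apart, and the level fell by 25.6% (log2 fold change -0.43 ± 0.086 SE, adjusted p = 0.0122). Ccnb2, a B-type cyclin, stood at 123, 112 and 112 CPM against 133, 156 and 136 CPM (-0.29 ± 0.078, adjusted p = 0.0351). Its groups were also apart, and the call did not hold when Stag2KO replicate 2 (adjusted p = 0.103) or 3 (0.109) or Stag2WT replicate 2 (0.0748) or 3 (0.0525) was left out. Ccnb1, the main partner of Cdk1 at mitotic entry, stood at 114, 109 and 96.8 CPM against 119, 126 and 114 CPM, where Stag2KO replicate 1 and Stag2WT replicate 3 nearly met (-0.17, adjusted p = 0.143). Cdk1 stood at 174, 161 and 153 CPM against 178, 206 and 176 CPM (-0.20, adjusted p = 0.117). Within each library, Ccna2 gave 1.88, 1.85 and 1.94 reads per Ccnb1 read in Stag2KO and 2.12, 2.39 and 2.25 in Stag2WT, ranges that did not overlap. Of 5 such ratios examined, each had an exact two-sided permutation p of 0.1, adjusted 0.1, the smallest that 3 against 3 libraries can give. Each ratio set a gene called here over a gene not called, so its separation adds no support beyond those calls.

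Of the kinases that drive spindle formation, Aurka fell and Plk1 did not pass the test. Aurka, which acts at centrosomes and spindle poles, stood at 76.5, 72.3 and 76.9 CPM in Stag2KO and 90.4, 108 and 89.8 CPM in Stag2WT (-0.35 ± 0.082, adjusted p = 0.0208). The groups were apart, with Stag2WT replicate 2 the highest, and the call did not hold with Stag2KO replicate 1 (adjusted p = 0.0513) or 2 (0.0690) left out. Plk1, a kinase of mitotic entry, centrosome maturation and cytokinesis, stood at 111, 92.0 and 95.3 CPM against 120, 111 and 110.4 CPM (-0.19, adjusted p = 0.124). Its ranges overlapped through Stag2KO replicate 1, without which it was called lower (adjusted p = 0.0461).

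The chromosomal passenger complex corrects faulty kinetochore attachments, and of its 4 subunits only Birc5 was called. Birc5 (survivin), which brings the complex to centromeres, stood at 122, 115 and 112 CPM in Stag2KO and 150.2, 173 and 149.9 CPM in Stag2WT. Every Stag2KO library was lower, and the fitted level fell by 26.4% (116 ± 5.33 against 158 ± 13.5 CPM, SD, n = 3; log2 fold change -0.44 ± 0.075 SE, adjusted p = 0.00635), the largest fall among the 42 genes. Aurkb, the kinase of the complex, stood at 129, 123 and 121 CPM against 122, 129.6 and 137 CPM, with overlapping ranges (-0.06, adjusted p = 0.517). Incenp, the scaffold (-0.08, adjusted p = 0.352), and Cdca8, also called borealin (-0.20, adjusted p = 0.0966), had overlapping ranges as well. Birc5 gave 0.948, 0.930 and 0.926 reads per Aurkb read in Stag2KO and 1.23, 1.34 and 1.10 in Stag2WT (exact two-sided permutation p = 0.1, adjusted 0.1).

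Of the 5 spindle checkpoint genes, only Bub1 was called lower. Bub1, a kinase that builds checkpoint complexes at kinetochores and marks centromeric histone H2A, stood at 101, 102 and 102 CPM in Stag2KO and 112, 131 and 122 CPM in Stag2WT (-0.26, adjusted p = 0.0303). The Stag2KO libraries were tightly grouped below the others, yet the call held in only 1 of the 6 fits that leave out a library, the one without Stag2WT replicate 1, with adjusted p of 0.0663 to 0.0859 in the rest. Bub1b (BubR1) and Bub3, which join Mad2 and Cdc20 in the inhibitor of APC/C, had log2 fold changes of -0.16 (adjusted p = 0.0794) and -0.16 (0.206). Mad2l1 (Mad2), which binds Cdc20 directly, had -0.12 (adjusted p = 0.262), and Ttk (Mps1), the kinase at the head of the checkpoint, -0.06 (adjusted p = 0.513).

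At the step into anaphase, Pttg1 rose and its partners did not pass the test. Pttg1 encodes securin, the inhibitor and chaperone of separase. It stood at 44.1, 38.6 and 29.4 CPM in Stag2KO and 20.5, 21.1 and 18.8 CPM in Stag2WT, from 1286, 1418 and 1122 reads and 735, 739 and 641 reads. All Stag2KO libraries were above all Stag2WT libraries, and the 3 Stag2KO values were spread while the Stag2WT values were close. The mean was 37.4 ± 7.42 against 20.1 ± 1.21 CPM (SD, n = 3), and the fitted level was 85.7% higher (log2 fold change 0.89 ± 0.143 SE, adjusted p = 0.00501). The log2 fold change ran from 0.76 to 1.04 when a library was left out, always with a call. Espl1, which encodes separase, the protease that cuts cohesin, stood at 101, 104 and 100.4 CPM against 103, 106 and 117 CPM, with overlapping ranges (-0.10, adjusted p = 0.306). Pttg1 thus gave 0.437, 0.372 and 0.293 reads per Espl1 read in Stag2KO and 0.198, 0.199 and 0.161 in Stag2WT (exact two-sided permutation p = 0.1, adjusted 0.1). Cdc20, the activator that turns APC/C onto securin and cyclin B, stood at 132, 129.5 and 123 CPM against 123, 128 and 124 CPM (0.03, adjusted p = 0.703). Ube2c, the ubiquitin-conjugating enzyme that works with APC/C, had overlapping ranges (-0.12, adjusted p = 0.304). Pttg1 gave 0.334, 0.298 and 0.240 reads per Cdc20 read in Stag2KO and 0.166, 0.165 and 0.151 in Stag2WT, again without overlap (exact two-sided permutation p = 0.1, adjusted 0.1).

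**Figure D3:**
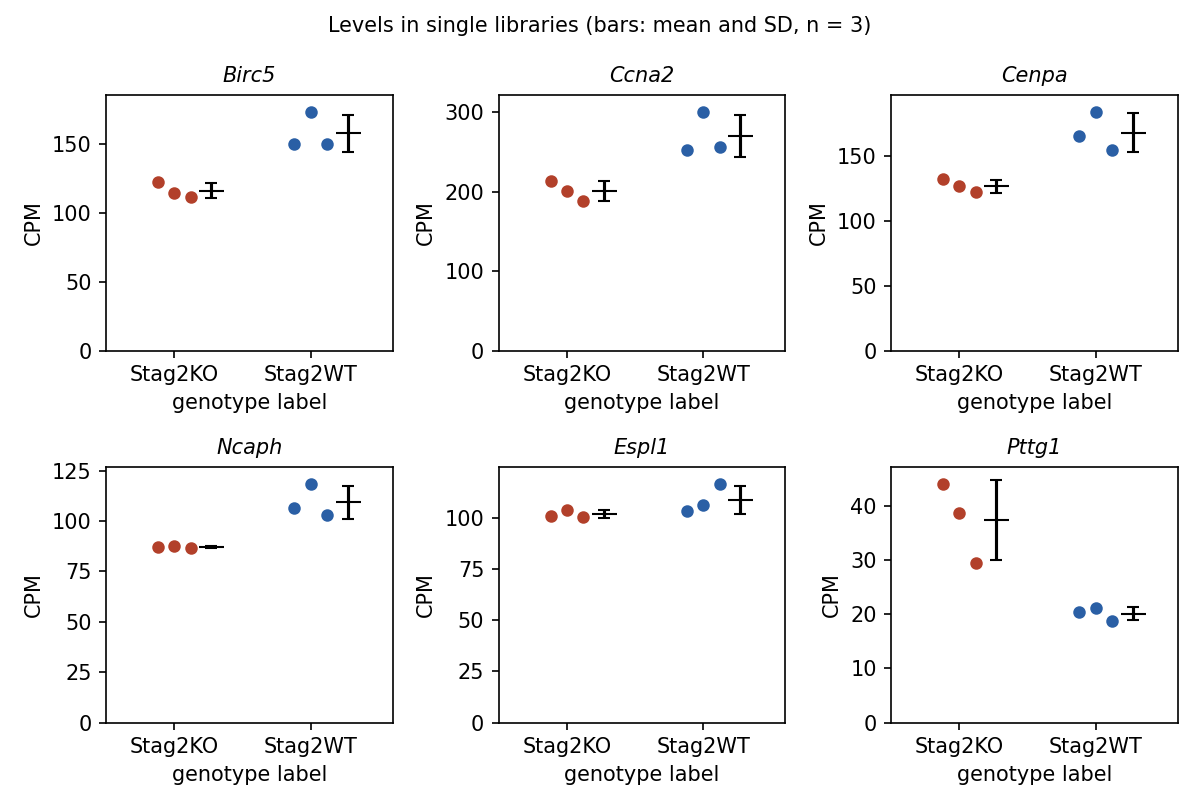
CPM of 6 mitosis genes in single libraries (points; vertical axes start at 0), with mean and SD of each group (n = 3). Birc5, Ccna2, Cenpa and Ncaph are lower in every Stag2KO library, the ranges of Espl1 overlap, and Pttg1 is higher in every Stag2KO library, from 29.4 to 44.1 CPM.

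Neither of the genes that protect cohesin before anaphase was called. Cdca5 (sororin), which keeps cohesin closed by opposing its release factor, stood at 55.4, 51.7 and 53.7 CPM in Stag2KO and 56.1, 64.1 and 66.8 CPM in Stag2WT (-0.22, adjusted p = 0.0833). The ranges were just apart, and without Stag2WT replicate 1 the gene was called lower (adjusted p = 0.0398). Sgol1 (shugoshin), which shields centromeric cohesin, stood at 58.4, 57.8 and 57.3 CPM against 65.5, 78.7 and 62.4 CPM (-0.25, adjusted p = 0.0801), again with the groups apart.

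All 5 centromere and kinetochore genes had separate ranges, lower in Stag2KO, as 21.2% of all genes tested did. Cenpa and Cenpf were called. Cenpa, the histone H3 variant that marks the centromere, stood at 132, 127 and 122 CPM in Stag2KO and 165, 184 and 154 CPM in Stag2WT. It fell by 24.5% (-0.40 ± 0.076, adjusted p = 0.00947). Cenpf, a large protein of the outer kinetochore, stood at 114, 119 and 117 CPM against 133, 134 and 136 CPM (-0.21, adjusted p = 0.0293). Replicates of Cenpf were close in both groups, and its call held in 1 of the 6 fits without a library, the one without Stag2WT replicate 2, with adjusted p of 0.0625 to 0.0996 in the rest. Cenpe, the motor that carries chromosomes to the spindle equator, stood at 143, 149 and 147 CPM against 165, 161 and 173 CPM, just outside the threshold (-0.19, adjusted p = 0.0510). Ndc80 and Nuf2, a pair that binds microtubules, had log2 fold changes of -0.17 (adjusted p = 0.114) and -0.21 (adjusted p = 0.0654). Cenpa gave 2.60, 2.63 and 2.56 reads per Ndc80 read in Stag2KO and 2.96, 3.25 and 2.98 in Stag2WT (exact two-sided permutation p = 0.1, adjusted 0.1).

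Condensin, the ring complex that compacts mitotic chromosomes, had 3 of its 5 genes called lower. Ncaph, the kleisin subunit that closes the ring, stood at 87.2, 87.7 and 86.4 CPM in Stag2KO and 106, 119 and 103 CPM in Stag2WT (-0.33 ± 0.067, adjusted p = 0.0125). Smc2, an ATPase arm, stood at 236, 241 and 225 CPM against 275, 304 and 283 CPM (-0.29, adjusted p = 0.0166); without Stag2KO replicate 3 the adjusted p was 0.0723. Ncapg, a HEAT-repeat subunit, stood at 107, 116 and 104 CPM against 125, 136 and 129 CPM (-0.25, adjusted p = 0.0314), and was called only without Stag2KO replicate 2 or Stag2WT replicate 1 among the fits that leave out a library (0.0636 to 0.118 in the rest). In all 3 the groups were apart. Smc4, the partner arm of Smc2, stood at 490.1, 483 and 469 CPM against 516, 563 and 528 CPM (-0.16, adjusted p = 0.124), and Ncapd2, the other HEAT-repeat subunit, had overlapping ranges (-0.10, adjusted p = 0.344).

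Top2a, the topoisomerase that untangles sister chromatids, stood at 791, 828 and 799 CPM in Stag2KO and 929.5, 1000 and 999.7 CPM in Stag2WT. It fell by 17.4% (-0.28, adjusted p = 0.0279), with the call held in 1 of the 6 fits without a library, the one without Stag2WT replicate 1, and adjusted p of 0.0539 to 0.109 in the rest. Mki67, which coats mitotic chromosomes and is the usual marker of dividing cells, stood at 1089, 1182 and 1076 CPM against 1253, 1231 and 1305 CPM. Its groups were apart and it did not pass the test (-0.18, adjusted p = 0.125).

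All 5 genes of spindle assembly had separate ranges, lower in Stag2KO, as 21.2% of all genes tested did. Nusap1 and Tpx2 were called lower. Nusap1, which bundles microtubules around chromosomes, stood at 147, 143 and 145 CPM in Stag2KO and 172, 194 and 169 CPM in Stag2WT (-0.30, adjusted p = 0.0188); the adjusted p was 0.0503, 0.0601 and 0.0602 without Stag2KO replicate 1, 2 and 3. Tpx2, which activates Aurka on the spindle, stood at 185, 175 and 175 CPM against 199, 216 and 207 CPM (-0.22, adjusted p = 0.0362), and was called in none of the fits that leave out a library (adjusted p of 0.0507 to 0.131). Kif11, the motor that pushes spindle poles apart, stood at 300.2, 302 and 243 CPM against 319, 335 and 338 CPM, with Stag2KO replicate 3 far below the others (-0.23, adjusted p = 0.102). Hmmr, a spindle pole protein, and Kif2c, a microtubule-depolymerising motor, had log2 fold changes of -0.19 (adjusted p = 0.0634) and -0.11 (adjusted p = 0.232).

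Late in division, Kif20a fell and the other 3 genes of the midzone and cytokinesis had overlapping ranges. Kif20a, a motor of the central spindle, stood at 82.8, 81.9 and 79.5 CPM in Stag2KO and 92.8, 97.3 and 94.8 CPM in Stag2WT (-0.22, adjusted p = 0.0260). The call held in 1 of the 6 fits without a library, the one without Stag2WT replicate 1, with adjusted p of 0.0531 to 0.108 in the rest. Ect2, which activates RhoA for the contractile ring, stood at 90.1, 96.4 and 92.9 CPM against 88.6, 88.2 and 93.1 CPM (0.05, adjusted p = 0.562). Kif23, a motor subunit of centralspindlin, and Prc1, which bundles midzone microtubules, had log2 fold changes of -0.12 (adjusted p = 0.256) and -0.03 (adjusted p = 0.708). For Prc1 the sign turned, to 0.01, with total gene reads alone, and its value without Stag2WT replicate 2 was 0.0017.

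Some of these genes share bases with a neighbour, and the sources used here do not give the strand setting of the counts. How reads over shared bases were assigned is thus not known. They may have been set aside as ambiguous, as 2.02% to 2.20% of the reads of a table were. In the GRCm38 annotation, 9 genes share exon bases with a gene on the other strand, among them Ccna2 with Exosc9, Ncapg with Lcorl, Nusap1 with Oip5, Kif20a with Cdc23 and Cdc20 with Elovl1. On the same strand, Top2a shares exon bases with Gm23451, and Ncapd2 with Gm28967 and Scarna10. Birc5, Cenpa, Ncaph and Pttg1 overlap none, and the table also lists Ccnb2-ps, a pseudogene of Ccnb2.

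Other genes of the cell cycle were mostly not called outside DNA replication and the list of condensin II and chromatid compaction. Across 180 further cell cycle genes in 11 lists, 46 were called lower (25.6%) and 4 higher (2.22%), where 10.5% and 10.7% of all genes tested were. The median log2 fold change over the 180 genes was -0.15. Leaving out Stag2KO replicates 1, 2 and 3 in turn gave 27, 19 and 13 lower, and leaving out Stag2WT replicate 2 gave 24. Fewer calls were lost with Stag2WT replicate 1 or 3 left out. The DNA replication genes gave 26 of these calls.

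Of 41 DNA replication genes, 26 were called lower (63.4%) and none higher, with a median of -0.37. Cdc6, which loads the replicative helicase, had the steepest of the 3 changes named (-0.74, adjusted p = 0.00709). Uhrf1, which keeps DNA methylation through replication, had -0.46 (0.00502), and Pola1, the catalytic subunit of DNA polymerase alpha, -0.38 (0.00613). The summed replication level was 6458, 6245 and 5736 CPM in Stag2KO and 7345, 8664 and 7347 CPM in Stag2WT, 21.1% lower, with Stag2WT replicate 2 the highest and Stag2KO replicate 3 the lowest, as for the mitosis genes. Per replication CPM, the mitosis genes summed to 1.17, 1.20 and 1.25 in Stag2KO and 1.12, 1.01 and 1.16 in Stag2WT, ranges that met closely at 1.16 and 1.17. With Stag2KO replicate 1, 2 or 3 left out, 17, 9 and 5 replication genes were called. With Stag2WT replicate 1, 2 or 3 left out, 22, 14 and 24 were called. Over all genes tested, 5.65% to 8.18% were lower in the fits without a library, against 10.5% with all libraries.

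Genes of condensin II and chromatid compaction were the other list with most genes called, 4 of 6 lower (66.7%, where 10.5% of all genes tested were). Ncapg2, a condensin II subunit, had -0.46 on the log2 scale (adjusted p = 0.00624), and Kif4, a chromosome-arm motor, -0.35 (adjusted p = 0.00882). Kif22, another chromosome-arm motor, had -0.30 (adjusted p = 0.0133, and 0.0551 without Stag2KO replicate 3), and Ncaph2, the condensin II kleisin, -0.23 (adjusted p = 0.0410, and over 0.05, up to 0.136, with each of the 6 libraries left out in turn). Without Stag2KO replicate 3, 2 of the 6 genes were called.

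Of 30 kinetochore genes outside the set, 4 were called lower (13.3%) and none higher, a share near the 10.5% of all genes tested that were lower. Cenpk, of the inner kinetochore, had -0.74 (adjusted p = 0.0186) and stood at 27.8, 27.5 and 21.6 CPM against 39.8, 52.4 and 35.7 CPM, with the groups apart. Cenpp had -0.41 (adjusted p = 0.0320), Mis12 -0.26 (0.0477) and Ska1 -0.32 (0.0490), each lost in at least 4 fits that leave out a library (up to 0.139). Of 8 other checkpoint genes 1 was lower (12.5%, also near that of all genes), Kntc1 (-0.25, adjusted p = 0.0215), part of the complex that brings Mad1 and dynein to kinetochores, whose call did not hold with Stag2KO replicate 1 (0.0698) or 3 (0.0846) or Stag2WT replicate 3 (0.0570) left out. Its partner Zwilch had -0.19 (adjusted p = 0.0712), and Mad2l1bp and Mad1l1 had -0.27 (0.0755) and -0.16 (0.164).

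The APC/C itself gave no call among 17 genes. The smallest p belonged to the subunit Anapc5 (-0.19, adjusted p = 0.0792), then the inhibitor Fbxo5 (-0.27, 0.111) and the subunits Anapc2 (0.11, 0.174) and Anapc4 (0.12, 0.237). Nor was any of 8 other cytokinesis genes called; Anln, Racgap1, Sept7 and Rhoa had log2 fold changes of -0.18, -0.16, -0.13 and -0.13. Of 8 cohesin regulators, 2 were lower (25.0%, where 10.5% of all genes tested were). These were Esco2 (-0.48) and Wapal (-0.31, adjusted p = 0.0661 and 0.0803 without Stag2KO replicates 1 and 3). Gsg2, the haspin kinase, had -0.16 (adjusted p = 0.160) and Pds5b 0.13 (0.205).

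Among 23 other motor and spindle genes, 2 were lower (8.70%) and 1 higher (4.35%), both shares below those over all genes tested (10.5% and 10.7%). Numa1, which anchors microtubules at spindle poles and is a nuclear protein between divisions, was the one higher, at 312, 317 and 313 CPM against 259, 219.7 and 274 CPM (0.32, adjusted p = 0.0310). Its ranges were apart, and the call did not hold with Stag2KO replicate 1, 2 or 3 or Stag2WT replicate 1 left out (0.0601 to 0.0797). Ckap2l (-0.21, adjusted p = 0.0319) and Plk4 (-0.25, adjusted p = 0.0483), the kinase of centriole duplication, were lower, each held in 1 of 6 fits without a library (up to 0.118 and 0.153), and Nek2 had -0.19 (adjusted p = 0.0564).

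Regulators of the G2 and M programme were mostly not called. In the switch into mitosis 15.4% of genes were lower, and in the transcription complexes 7.69% were lower and 7.69% higher. Over all genes tested, 10.5% were lower and 10.7% higher. Of 13 genes in the switch into mitosis, Ccnf (-0.25, adjusted p = 0.0422) and Gtse1 (-0.26, adjusted p = 0.0431) were lower, each called only without Stag2KO replicate 1 among the fits with a library left out (up to 0.138 and 0.161 in the rest). Cks1b and Wee1 had -0.23 (adjusted p = 0.106) and 0.19 (0.159). Of 13 genes of the transcription complexes, Mybl2 (B-Myb), which activates late cell cycle genes, was lower at 75.0, 76.3 and 69.7 CPM against 85.4, 96.9 and 96.5 CPM (-0.34, adjusted p = 0.0157, and 0.0606 without Stag2KO replicate 3). Rbl2 (p130), a pocket protein of the repressor complex in resting cells, was higher at 112, 115 and 115 CPM against 104.9, 89.9 and 95.9 CPM (0.24, adjusted p = 0.0412), with the call held only without Stag2WT replicate 1 (0.0778 to 0.116 in the rest). E2f4 and Lin52, of the same complex, had -0.27 (adjusted p = 0.0643) and -0.30 (0.0772).

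Of 14 cell cycle inhibitors and G1 cyclins, 4 were lower (28.6%) and 2 higher (14.3%), where 10.5% and 10.7% of all genes tested were. Ccnd1 and Ccnd3, the D-type cyclins that start the cycle, fell by 1.20 (adjusted p = 0.00221) and 0.67 (adjusted p = 0.00991) on the log2 scale. Cdkn1c (p57), an inhibitor of cyclin-dependent kinases, rose by 1.44 from a low level (4.55 ± 0.838 against 1.67 ± 0.256 CPM, SD, n = 3; adjusted p = 0.00368). Cdkn2c (p18) had -0.40 (adjusted p = 0.0231), with the call held in 1 of 6 fits without a library, the one without Stag2WT replicate 3 (up to 0.0752 in the rest). The other calls of this list, named after their values were seen, were Btg1, lower (-0.51, adjusted p = 0.0302, up to 0.0908 with a library left out), and Ccng2, higher (0.37, adjusted p = 0.0247, up to 0.0799).

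**Figure D4:**
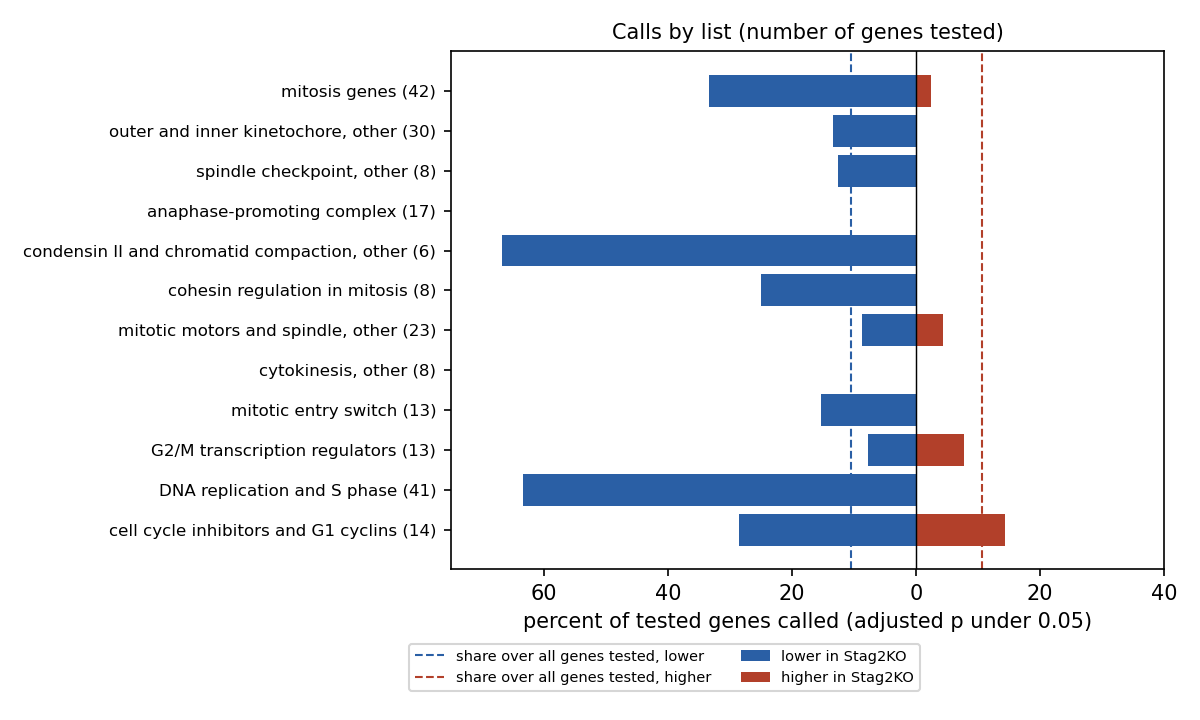
Share of tested genes called lower (blue, to the left) and higher (red, to the right) in the mitosis set and 11 cell cycle lists, with dashed lines at the shares over all genes tested (10.5% lower, 10.7% higher). The longest bars lower belong to the list of condensin II and chromatid compaction and to DNA replication, and the APC/C and cytokinesis lists have none.

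Markers of several cell types differed between the same libraries. Beside the counts below, 10.5% of all genes tested were called lower and 10.7% higher. The 13 erythroid genes tested, 6 of them called lower and none higher, summed to 3523, 3507 and 2730 CPM in Stag2KO and 4728, 6072 and 3620 CPM in Stag2WT, 32.3% lower on average. Stag2WT replicate 2 was the highest and Stag2KO replicate 3 the lowest, as for the mitosis genes. With Stag2KO replicate 1, 2 or 3 left out, 1, 0 and 1 erythroid genes were called, and 1, 3 and 7 with Stag2WT replicate 1, 2 or 3 left out. Calls over all genes tested also fell in these fits, from 3333 to between 1967 and 2548. Primary granule genes of neutrophil precursors moved the other way, with 6 of 7 called higher, from 8828 to 10890 CPM in Stag2WT and 12840 to 15590 CPM in Stag2KO. Their calls numbered 3, 6 and 1 with Stag2KO replicate 1, 2 or 3 left out, and 2, 2 and 3 with Stag2WT replicate 1, 2 or 3 left out. All 10 macrophage genes were lower, at 277 to 399 CPM against 1018 to 1140 CPM, as were 10 of 11 B cell precursor genes tested. With the untested Vpreb2, the 12 B cell precursor genes summed to 131 to 135 CPM in Stag2KO and 315 to 402 CPM in Stag2WT. Of 8 stem cell genes tested none was lower and 2 were higher, Hlf and Meis1. With the untested Hoxb5, the 9 genes of the list summed to 362 to 426 CPM in Stag2KO and 351 to 374 CPM in Stag2WT. Neither stem cell gene was called with Stag2WT replicate 1 or 2 left out, and 1 was called without Stag2KO replicate 1 or 2 or Stag2WT replicate 3.

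Of 11 eosinophil and basophil genes 7 were higher and 2 lower, and the list summed to 5245 to 7014 CPM in Stag2KO and 3594 to 4009 CPM in Stag2WT, 53.2% higher on average. Those higher included the eosinophil granule genes Epx and Prg2, and the 2 lower were the basophil proteases Mcpt8 and Prss34. Not all basophil genes of the list fell. Ms4a2 was called higher (log2 fold change 0.32, edgeR adjusted p = 0.0442), and Cpa3 was not called (0.20, edgeR adjusted p = 0.0651). Of 8 T cell genes 4 were lower (Cd3e, Cd3g, Cd8a and Thy1) and none higher. Their sum fell by 36.5% on average, at 42.4 to 86.2 CPM in Stag2KO and 66.4 to 125 CPM in Stag2WT, ranges that overlap. Of 8 stroma and endothelium genes 4 were lower (Lepr, Cxcl12, Col1a1 and Stab2) and 3 higher (Pdgfrb, Pecam1 and Emcn), with sums of 220.3 to 237.8 CPM against 265 to 300.7 CPM. The number higher was 1 without Stag2KO replicate 2 or 3 or Stag2WT replicate 1 or 2. None of 10 maturing neutrophil genes was called with the 6 libraries, and 1 was higher without Stag2KO replicate 2. The genes named from these lists were picked after their values were seen. The part of the markers of all these cell types in the lower level of the mitosis genes, or in the higher level of Pttg1, was not tested.

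**Figure D5:**
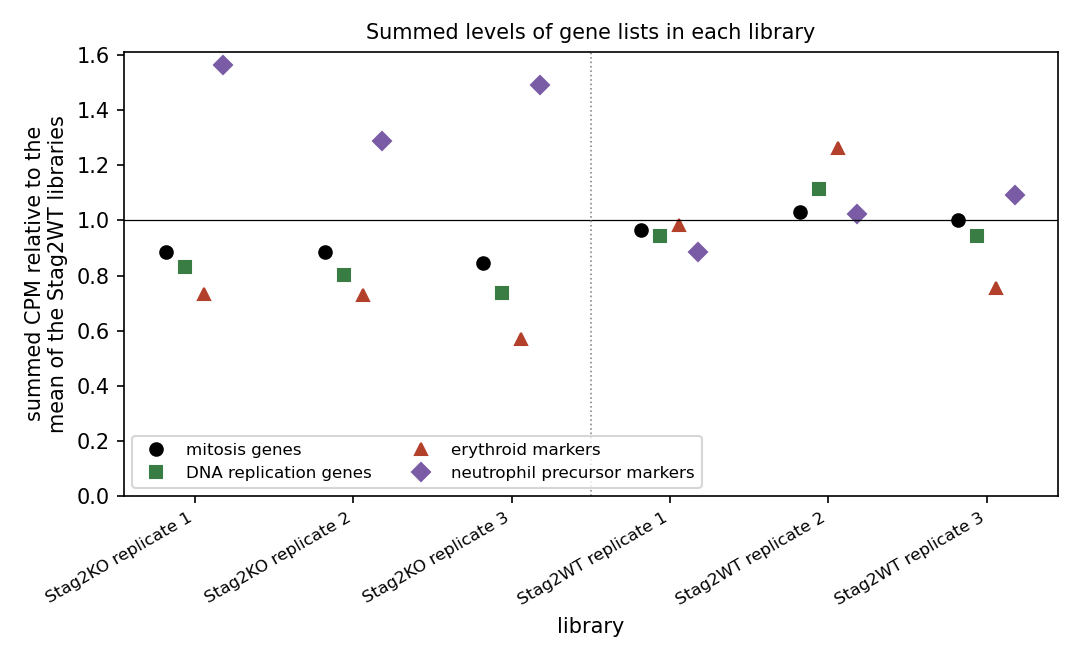
Summed CPM of the mitosis genes, DNA replication genes, erythroid markers and neutrophil precursor markers in each library, relative to the mean of the 3 Stag2WT libraries (points, linear axis from 0, line at 1). The mitosis genes, DNA replication genes and erythroid markers are lower in the Stag2KO libraries and highest in Stag2WT replicate 2, and the neutrophil precursor markers are higher in the Stag2KO libraries.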

How the data were processed

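Mouse lineage-depleted bone marrow RNA was compared between 3 Stag2KO and 3 Stag2WT libraries. The authors deposited raw read counts per gene symbol, whole numbers with no normalization. STAR 2.4, HTSeq 0.6.1, DESeq2 and the build mm9 are named in the submitters' processing notes; the sources used here do not give the library kit for these cells, the annotation or the strand setting. Counter totals (reads in no gene, ambiguous or not unique) entered neither library sizes nor tests; reads in no gene were 8.81% to 12.8% of a table. Groups follow the genotype label, and replicate numbers follow accession order and only name libraries.

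The test was edgeR 4.0.16 in R 4.3.3 (TMM, filterByExpr with a minimum count of 10, robust quasi-likelihood fit, genotype as the only term), with Benjamini-Hochberg adjustment over 15708 genes and a threshold of 0.05. Libraries of 29435651 to 37722325 gene reads gave 641 reads or more for each mitosis gene, and reads are not single molecules, so depth bears on counting error only. Ratios within libraries were compared with an exact permutation test. Alternatives were median-ratio, upper-quartile and total-read scaling, filters of 1 read or 5 CPM in 3 libraries, DESeq2 1.42.0, limma-voom (limma 3.58.1), a fit without robust estimation and each library left out. Of these fits, only the main edgeR fit was tested on simulated data.

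All 42 set genes are named, and up to 4 genes with the smallest p of each further list, of which 1 is not reported here, plus Stag2. The set and the lists were chosen with earlier results of these data known. Promoters, gene order and overlapping exons came from GRCm38, which is not the authors' build, so no position is given for reads; 6 promoters (Ccna2, Aurkb, Incenp, Smc4, Tpx2 and Kif20a) were not matched.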

Additional observations from a re-analysis of the deposited data

How the results depend on the processing

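No paired analysis was possible because the labels give the libraries no shared replicate numbers. The median log2 fold change of the mitosis genes lay between -0.21 and -0.15 in every setting, 1 gene was called higher in every setting, and none of the 15 called genes changed sign. Of the 15, 9 kept their call in all 8 settings that use the 6 libraries, and total-read scaling ended the calls of Bub1, Cenpf, Ncapg, Top2a, Tpx2 and Kif20a, leaving 8 genes lower. With a library left out, 5 to 13 mitosis genes were called lower, 13 to 39 genes of the other lists, and 1967 to 2548 genes in all, against 14, 46 and 3333 with 6 libraries. Each mitosis gene had at least 641 reads in each library, and depth limits genes of few reads more. Searching only the 250 bases before the start, TTTGAA or TTTAAA was found in 58.3% of the 36 promoters in place of 80.6%, TTTGAA alone in 44.4% in place of 72.2%, while CCAAT was found in 72.2% in place of 75.0%.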

Other observations

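Around Pttg1, the 10 tested genes on each side in the GRCm38 gene order were looked up after its value was seen. Of these 20, 2 were called lower and 1 higher, against 10.5% and 10.7% of all genes tested. The direct neighbours Ccng1 and Slu7 had log2 fold changes of -0.04 (edgeR adjusted p = 0.741) and 0.08 (edgeR adjusted p = 0.327). Hmmr, the mitosis gene 3 places away, had -0.19 (edgeR adjusted p = 0.0634). The genes called were Ccnjl, higher by 1.22 at about 1 CPM (1.87 against 0.803 CPM, edgeR adjusted p = 0.0179), Ublcp1, a phosphatase of nuclear proteasomes, lower (-1.18, edgeR adjusted p = 0.00179), and Ebf1, a B cell factor, lower (-2.14, edgeR adjusted p = 0.000875).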
